A study of Mus musculus with 19 samples.

Results

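The 10 genes described here carry the MHC class I presentation pathway. They were chosen by symbol from the table of counts per gene, as 10 of the 24982 genes listed, and 9 of them were among the 11464 genes with enough counts to be tested. They are the heavy chains H2-K1, H2-D1, H2-T23, H2-Q7 and H2-M3, the light chain B2m, the peptide transporter subunits Tap1 and Tap2, the loading factor Tapbp (tapasin) and the transcriptional activator Nlrc5. Their RNA was measured by bulk RNA-seq in regulatory T cells (Tregs), the CD4+ T cells that express the factor FoxP3 and restrain other T cells. All mice were Foxp3DTR animals, given as 8 to 16 weeks old, in which Tregs carry GFP together with the diphtheria toxin receptor, so every group shares this allele. CD4+FoxP3-GFP+ cells were sorted from axillary, brachial and inguinal lymph nodes as CD44high or CD44low cells, 7 days after a burn (20% of the body surface in a bath of 90 °C for 9 seconds) or a sham procedure. Uninjured mice gave 4 CD44high and 5 CD44low samples, and injured mice gave 4 CD44high and 6 CD44low samples. RNA came from 50000 cells per sample. Neither the labels nor the methods state how many mice went into a sample or whether replicates were separate animals, so p-values measure only the spread between these samples, which may be technical.

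MHC class I molecules are displayed on nearly all nucleated cells and show short peptides from the cell's own proteins to CD8+ T cells and natural killer cells. Peptides made by the proteasome are carried into the endoplasmic reticulum by the TAP1-TAP2 transporter, and tapasin holds empty heavy chains with beta-2 microglobulin beside the transporter until a peptide binds. NLRC5 has no DNA-binding domain of its own. It is recruited by the RFX, CREB/ATF and NF-Y factors that sit on the X and Y boxes of class I promoters, and NLRC5 is known for high expression in T cells and for keeping class I genes on in them.

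Promoter sequences were taken from RefSeq on GRCm38.p6 for 8 of the 10 genes. No window was at hand for Tap2 and Nlrc5. The 6 windows that hold both TGACG and CCAAT, strings of the boxes through which NLRC5 works, are printed in part. Those of H2-T23 and Tapbp, which lack TGACG, are left out. In Tap1 the only CCAAT began 222 bases before the start, outside the printed stretch, so its line shows TGACG alone. Each line gives 195 bases, from 180 before to 15 after the RefSeq start of the gene, 5′ to 3′ on the gene's own strand. Capitals mark TGACG (part of the X2 box), CCAAT or its complement ATTGG (Y box) and GGGGATTCC (core of enhancer A, a kappa B site). The windows lie at chr17:34000333-34000527 (minus strand) for H2-K1, chr17:35262914-35263108 (plus) for H2-D1, chr17:35438975-35439169 (plus) for H2-Q7, chr17:37270054-37270248 (plus) for H2-M3, chr2:122147507-122147701 (plus) for B2m and chr17:34187376-34187570 (plus) for Tap1.
H2-K1: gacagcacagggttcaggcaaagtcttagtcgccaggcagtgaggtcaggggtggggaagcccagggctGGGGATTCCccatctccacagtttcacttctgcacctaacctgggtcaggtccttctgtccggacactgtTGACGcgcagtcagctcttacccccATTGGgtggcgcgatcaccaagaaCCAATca
H2-D1: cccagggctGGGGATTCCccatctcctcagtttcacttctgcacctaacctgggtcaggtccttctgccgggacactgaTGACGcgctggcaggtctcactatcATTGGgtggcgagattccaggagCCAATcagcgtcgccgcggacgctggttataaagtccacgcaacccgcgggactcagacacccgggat
H2-Q7: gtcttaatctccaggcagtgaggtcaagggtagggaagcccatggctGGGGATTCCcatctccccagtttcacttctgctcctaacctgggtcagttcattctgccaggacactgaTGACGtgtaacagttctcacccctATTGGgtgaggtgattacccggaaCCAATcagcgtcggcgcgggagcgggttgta
H2-M3: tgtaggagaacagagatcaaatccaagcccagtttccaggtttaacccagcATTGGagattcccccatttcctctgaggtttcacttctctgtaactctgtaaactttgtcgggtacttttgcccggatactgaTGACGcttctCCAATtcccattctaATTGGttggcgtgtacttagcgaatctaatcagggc
B2m: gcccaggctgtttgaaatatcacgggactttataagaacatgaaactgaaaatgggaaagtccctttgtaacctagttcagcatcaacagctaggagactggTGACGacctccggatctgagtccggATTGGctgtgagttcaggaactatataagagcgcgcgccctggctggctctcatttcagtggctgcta
Tap1: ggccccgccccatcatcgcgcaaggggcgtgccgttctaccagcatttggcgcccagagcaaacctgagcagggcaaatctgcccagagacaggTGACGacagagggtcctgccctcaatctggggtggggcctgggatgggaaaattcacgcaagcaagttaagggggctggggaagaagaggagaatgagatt

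Motifs were searched on both strands in the full windows of 300 bases, from 250 before to 50 after the start. CCAAT was in 8 of the 8 member windows and in 37.9% of all 27025 windows. TGACG was in 6 of 8, all but H2-T23 and Tapbp, and in 21% of all windows. Both together were in 6 of 8 members and in 8.05% of all windows. GGGGATTCC was in 3 of 8, H2-K1, H2-D1 and H2-Q7, and in 0.259% of all windows, and only 7 of the 27025 windows held this string together with TGACG and CCAAT. In H2-D1 it began 171 bases before the start and TGACG began 101 before. The Y box matches of H2-D1 began 76 before (as ATTGG) and 53 before (as CCAAT). The interferon response core GAAANNGAA was in the H2-T23 and B2m windows (8.57% of all), and TTCNNNGAA, the interferon gamma activated site, in the H2-M3 window (8.47% of all). Of the matches in 1 window, 0 pairs shared a base. A match describes the letters of the window, not a bound site.

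The libraries held between 5582234 and 9433610 counts on genes, with TMM factors between 0.970 and 1.04. Levels below are CPM, counts scaled to a common library total after TMM adjustment, with mean ± SD over libraries. Fold changes and p-values come from edgeR's quasi-likelihood test (two-sided) in 1 model over all 19 libraries, with the Benjamini-Hochberg correction taken over those 11464 genes, and a gene was called at an adjusted p under 0.05. Sorting markers followed the labels, with Cd44 at 595 ± 37.5 CPM in CD44high (n = 4) and 133 ± 16.1 in CD44low Tregs (n = 5) of uninjured mice, while Foxp3 stood between 47.7 and 181 CPM in all 19 libraries. Markers of dendritic cells and macrophages (Itgax, Flt3, Xcr1, Siglech, Csf1r, Adgre1, Lyz2 and Cd68) summed to 91.7 to 167 CPM in CD44high and 20.6 to 41.0 in CD44low libraries of uninjured mice, and to 105 to 245 and 34.3 to 151 in injured mice. Of these 8 genes, 8 were higher in CD44high Tregs of uninjured mice and 3 in injured mice, where 24.7% and 20.1% of all genes tested were higher. Flt3 and Itgax were at 0 in some CD44low libraries. In uninjured CD44low Tregs Itgax, Flt3, Xcr1, Siglech and Adgre1 had means of only 0.0938 to 0.745 CPM. They had enough counts to be tested mainly through groups where they were higher. The counts of 8 and 3 therefore have no like background in the shares over all genes. B cell markers summed to 97.2 to 194 and 72.2 to 142 CPM in CD44high and CD44low libraries of uninjured mice. Of 6 tested, 1 was called higher in CD44high Tregs (Cd79b), against the same 24.7% of all genes. CD8 and NK cell markers summed to 43.5 to 69.0 CPM over all groups, mostly Cd8b1, with group means of 41.9 to 47.0. In uninjured mice Klrk1 had means of 2.07 CPM in CD44high and 0.244 in CD44low Tregs, and Ncr1 1.44 and 0.315. Eomes (0.592 and 1.30) and Cd8a (9.68 and 11.2) went the other way. Of the 4 tested, 0 were called there, where 24.7% of all genes were higher and 21.3% lower. Of the stromal markers Pdpn was at 0, Col1a1 was higher and Pecam1 lower in CD44high Tregs. Col1a1 had a mean of 0.0568 CPM in CD44low Tregs of uninjured mice, so it too was tested mainly through CD44high libraries. Dendritic cells and macrophages express class I genes, and the part of such cells in the results below was not tested.

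Class I RNA was abundant in all 4 groups, and the 9 members with counts took between 1.62% and 2.16% of each library. Compared per kilobase of the longest protein-coding transcript, B2m was highest at 7291 CPM per kb over all libraries, followed by H2-K1 at 3933 and H2-D1 at 1291. Tapbp stood at 515, H2-T23 at 381, Tap2 at 205, Tap1 at 201, H2-M3 at 62.6 and Nlrc5 at 13.8 CPM per kb. Tap1 and Tap2 changed places between groups, with Tap1 at 246 and Tap2 at 220.4 CPM per kb in CD44high and 183 and 214 in CD44low Tregs of uninjured mice. The order depends on the transcript chosen, since by the median annotated transcript H2-K1 came to 7391 CPM per kb, above B2m, and Tap2 to 1870.2.

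**Figure D1:**
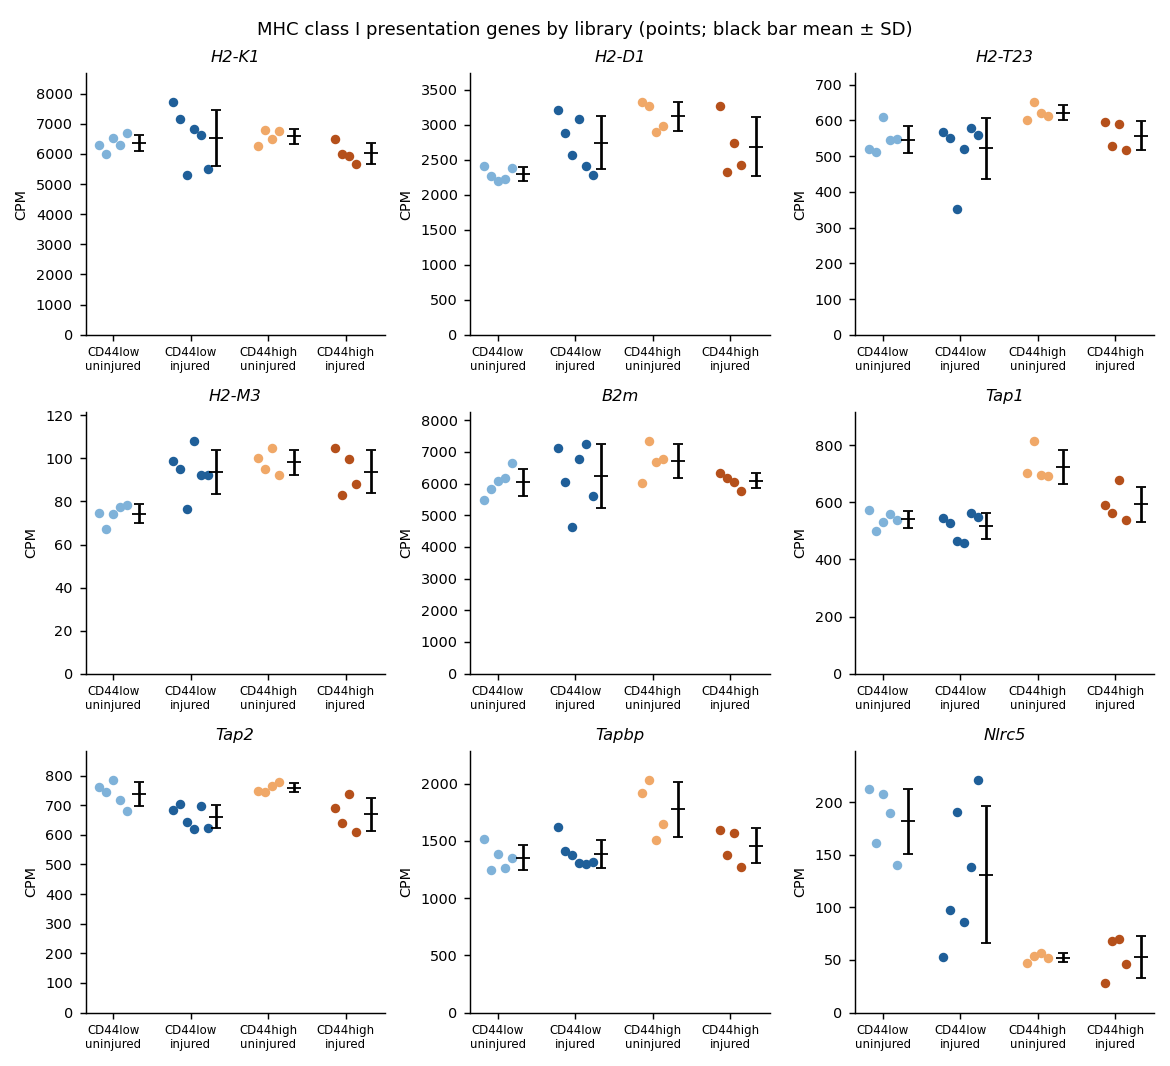
CPM, the count scaled to library size (y axis, from 0), of the 9 class I presentation genes with counts, with 1 point per library in 4 groups (x axis) and the mean ± SD as a black bar. H2-D1, H2-M3 and Tap1 of uninjured mice sit higher in CD44high than in CD44low libraries without overlap, while Nlrc5 sits at 46.7 to 57.0 in CD44high against 140.5 to 212 in CD44low libraries.

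In uninjured mice 5 of the 9 members tested were called between CD44high and CD44low Tregs. H2-D1, H2-M3, Tap1 and Tapbp were higher in CD44high Tregs by 1.31-fold to 1.36-fold, and Nlrc5 was 3.49-fold lower. H2-K1, H2-T23, B2m and Tap2 were not called. The calls were thus 4 higher and 1 lower of 9 members, where 24.7% of all genes tested were higher and 21.3% lower. Many genes thus differed between the subsets, and no test set the members apart from the rest. The median log2 fold change was 0.19 over the 9 members and 0.009 over all genes tested. Of the 9, 4 had no overlap between the libraries of the subsets (H2-D1, H2-M3, Tap1 and Nlrc5). The share of all genes tested without such overlap was not counted, here or in the comparisons below, so this count has no background.

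Among the classical heavy chains, which present peptides to CD8+ T cells, H2-K1 was not called. It stood at 6252, 6792, 6495 and 6766 CPM in CD44high and at 6299, 5982, 6531, 6295 and 6677 CPM in CD44low libraries of uninjured mice. The groups overlapped, and the log2 fold change was 0.05 (SE 0.0937, adjusted p = 0.694). H2-D1 stood at 3324, 3277, 2904 and 2981 CPM in CD44high and at 2414, 2277, 2192, 2233 and 2380.4 CPM in CD44low libraries. All 4 CD44high libraries lay above all 5 CD44low ones, with a log2 fold change of 0.44 (SE 0.106, adjusted p = 0.00155). It was 0.27 (adjusted p = 0.00692) with each library's trend on transcript length taken out, a setting described with Nlrc5. H2-D1 shares 14.3% of its 50-base words with transcripts of other genes, among them H2-Q1 and H2-T23, so some of its reads may be split or dropped in counting, depending on how shared reads were treated.

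The ratio of the classical chains within a library needs no scaling between libraries. Uninjured CD44high libraries held 0.441 to 0.532 H2-D1 counts per H2-K1 count, and CD44low libraries held 0.336 to 0.383. H2-D1 made up 30.0% ± 1.78 (SD, n = 4) of the counts on the 4 detected heavy chains in CD44high and 24.8% ± 1.08 (SD, n = 5) in CD44low Tregs, and H2-K1 63.1% ± 1.73 and 68.5% ± 0.789. In injured mice the H2-D1 to H2-K1 ratio was 0.446 ± 0.0487 (SD, n = 4) in CD44high and 0.423 ± 0.0411 (SD, n = 6) in CD44low Tregs, and the subsets overlapped. These ratios were not tested.

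**Figure D2:**
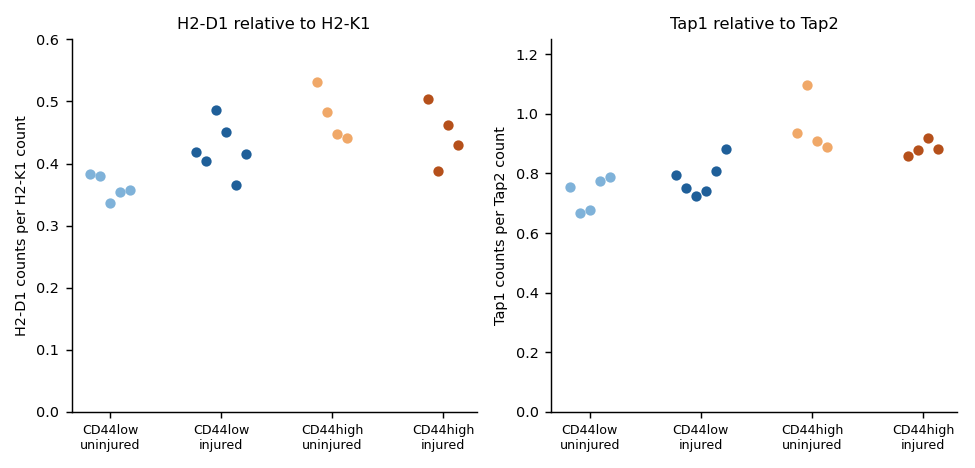
Counts of H2-D1 per count of H2-K1 (left) and of Tap1 per count of Tap2 (right), with 1 point per library in the 4 groups and y axes from 0. In uninjured mice the CD44high libraries lie above the CD44low libraries for both ratios, at 0.441 to 0.532 against 0.336 to 0.383 and at 0.888 to 1.10 against 0.668 to 0.790, while in injured mice the subsets overlap.

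Of the nonclassical heavy chains, H2-M3 presents formylated peptides, and it was 1.32-fold higher in CD44high Tregs of uninjured mice. Its CD44high libraries ran from 92.1 to 105 CPM, with the other two at 95.3 and between that and the highest, and its CD44low libraries stood at 74.6, 67.0, 74.1, 77.6 and 78.5 CPM. The groups did not overlap, and the log2 fold change was 0.40 (SE 0.106, adjusted p = 0.00359), or 0.25 (adjusted p = 0.0292) with the length trend out. H2-T23 encodes Qa-1, which presents a leader peptide of other class I chains to the inhibitory receptor NKG2A. It stood at 601, 650.4, 621 and 612 CPM in CD44high and at 519, 510.5, 608, 546 and 547 CPM in CD44low libraries. The CD44low library at 608 lay within the CD44high range, and the log2 fold change of 0.19 (SE 0.111, adjusted p = 0.181) was not called. H2-T23 shares 29.8% of its 50-base words with transcripts of other genes, so the limit given for H2-D1 holds here too.

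H2-Q7, which encodes the Qa-2 antigen, was listed at 0 in all 19 libraries. A count of 0 allows up to 0.318 to 0.537 CPM, taking 3 counts per library, and this covers counting error only. Its near copies H2-Q6 and H2-Q9 were listed at 0 as well, and H2-Q8 had 1 count in all. Of the 50-base words of H2-Q7 transcripts, 34.9% occur in transcripts of other genes, most often H2-Q6, so reads that match several copies may have been left uncounted, and no level can be given.

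The light chain B2m, which every class I heavy chain needs to reach the cell surface, stood at 6032, 7339.7, 6671 and 6776 CPM in CD44high and at 5496, 5818, 6089, 6170.1 and 6637 CPM in CD44low libraries of uninjured mice. The groups overlapped, with a log2 fold change of 0.15 (SE 0.105, adjusted p = 0.254). Set against the summed counts of H2-K1, H2-D1, H2-T23 and H2-M3, B2m came to 0.643 ± 0.0395 (SD, n = 4) counts per heavy chain count in CD44high and 0.651 ± 0.0369 (SD, n = 5) in CD44low Tregs, and to 0.653 ± 0.0362 (SD, n = 4) and 0.632 ± 0.0699 (SD, n = 6) in injured mice. The means of the 4 groups thus lay closer together than the SD within any group.

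The subunits of the peptide transporter were not parallel. Tap1 stood at 702, 814, 695 and 690.5 CPM in CD44high and at 573, 498, 532, 558 and 537 CPM in CD44low libraries of uninjured mice. The groups did not overlap, and the log2 fold change was 0.43 (SE 0.0910, adjusted p = 0.000533). Tap2 stood at 749, 743, 766 and 778 CPM in CD44high and at 761, 745, 785, 719 and 680.5 CPM in CD44low libraries, with a log2 fold change of 0.04 (SE 0.0793, adjusted p = 0.707). Tap1 counts per Tap2 count ran from 0.888 to 1.10 in CD44high and from 0.668 to 0.790 in CD44low Tregs. Tap1 has 212 exon bases on the opposite strand of Psmb9, and Tap2 shares 533 with the antisense Gm15821, so reads there cannot be assigned to a strand unless the counting used strand, which neither labels nor methods state.

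Tapbp encodes tapasin, which bridges TAP and the heavy chain. It stood at 1919, 2032, 1507 and 1648 CPM in CD44high and at 1518, 1246, 1382, 1260.1 and 1352 CPM in CD44low libraries of uninjured mice. The lowest CD44high library lay just under the highest CD44low library, and the log2 fold change was 0.39 (SE 0.100, adjusted p = 0.00258). Of its exon bases, 904 lie opposite the antisense gene Gm19412, and 21% of its 50-base words occur in transcripts of other genes on either strand.

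Nlrc5 differed in the opposite direction to the 4 members above. It stood at 46.7, 53.4, 57.0 and 51.9 CPM in CD44high and at 212, 161, 208, 190.0 and 140.5 CPM in CD44low libraries of uninjured mice. All 5 CD44low libraries lay above all 4 CD44high ones, and the log2 fold change was -1.80 (SE 0.309, adjusted p = 4.62e-05). In injured mice Nlrc5 was again lower in CD44high Tregs, at 27.9, 68.3, 69.7 and 45.8 CPM, against 52.7 to 221 CPM with a median of 118 in the 6 CD44low libraries. There the subsets overlapped, with a log2 fold change of -1.31 (SE 0.294, adjusted p = 0.00114), a 2.47-fold lower level.

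**Figure D3:**
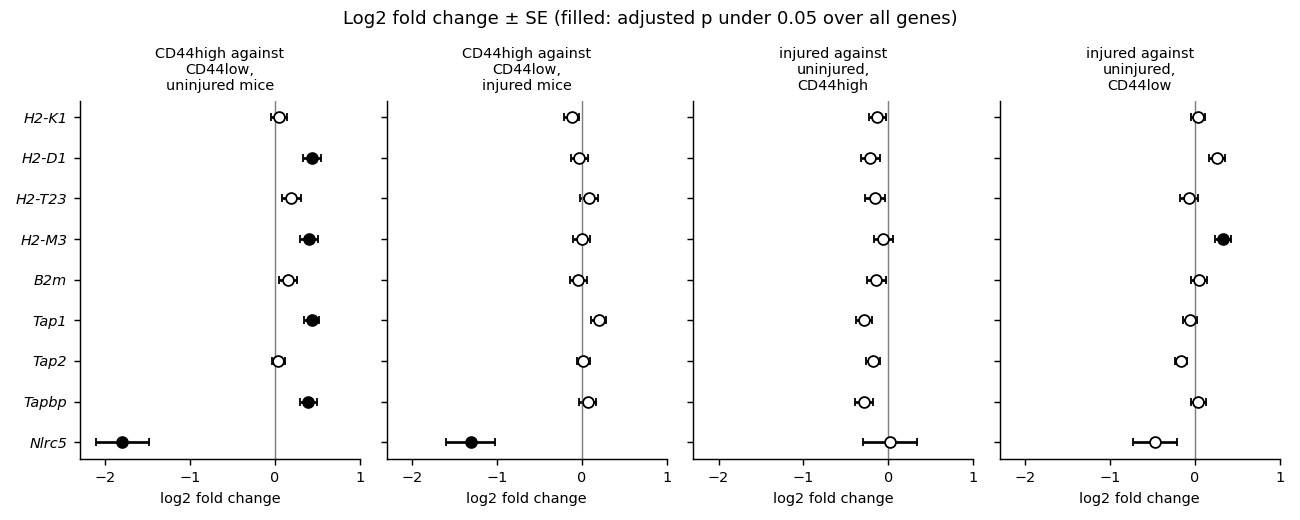
Log2 fold change (x axis) ± SE of the 9 members tested (y axis) in 4 comparisons, with filled points for an adjusted p under 0.05 over all genes. CD44high against CD44low Tregs of uninjured mice shows 4 genes higher and Nlrc5 lower, Nlrc5 is the only member called in injured mice, and injury shows 1 call, H2-M3 in CD44low Tregs.

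In injured mice Nlrc5 was the only member called between the subsets. The calls were 0 higher and 1 lower of 9, where 20.1% of all genes tested were higher and 17.2% lower, and no member's libraries were apart. The median log2 fold change was 0.00 over the members. DESeq2 also called 0 higher and 1 lower. At an unadjusted p under 0.05 there were 2 members, Nlrc5 and Tap1, the latter with a log2 fold change of 0.20 (SE 0.0875, adjusted p = 0.0826). H2-D1 had a log2 fold change of -0.03 (SE 0.102, adjusted p = 0.846), H2-M3 of 0.00 (SE 0.102, adjusted p = 0.995) and Tapbp of 0.07 (SE 0.0968, adjusted p = 0.610).

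After injury few of these genes were called. In CD44high Tregs 0 of 9 members were called in either direction by edgeR, 3 had an unadjusted p under 0.05, and DESeq2 also called 0. Of all genes tested 1.06% were higher and 1.33% lower. Log2 fold changes were negative for 8 of the 9, and their median was -0.16 against -0.021 over all genes. Tap1 stood at 591, 563, 678 and 539 CPM in injured and at 702, 814, 695 and 690.5 CPM in uninjured CD44high libraries. The groups did not overlap, yet the log2 fold change of -0.29 (SE 0.0963) had an adjusted p of 0.122 by edgeR. Tap2, at 689, 641, 739 and 611 CPM after injury, was also below all 4 uninjured libraries (log2 fold change -0.18, SE 0.0837, adjusted p = 0.310), as was H2-T23 (-0.16, SE 0.118, adjusted p = 0.576). Tapbp had a log2 fold change of -0.29 (SE 0.106, adjusted p = 0.177). Nlrc5 had one of 0.02 (SE 0.315, adjusted p = 0.983).

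In CD44low Tregs 1 of 9 members was higher after injury and 0 lower, where 4.24% of all genes tested were higher and 3.36% lower. H2-M3 rose from 74.3 ± 4.54 CPM (SD, n = 5) to 93.8 ± 10.2 (SD, n = 6), with injured libraries from 76.6 to 108 and a median of 93.7. The lowest injured library lay within the uninjured range of 67.0 to 78.5, and the log2 fold change was 0.33 (SE 0.0968, adjusted p = 0.0374). The call was lost when injured libraries 1_2, 4_2 and 5_2, which bear a further number, were left out (0.28, adjusted p = 0.0894) and kept with those 3 alone (0.41, adjusted p = 0.0424). It was also lost without any of CD44low uninjured libraries 1, 2 and 3 or CD44low injured libraries 1 and 1_2, with adjusted p between 0.0511 and 0.0766, and with the length trend out (0.19, adjusted p = 0.170). H2-D1 had a log2 fold change of 0.26 (SE 0.0962, adjusted p = 0.0948), with 2288 to 3220.5 CPM and a median of 2732 in injured against 2192 to 2414 in uninjured CD44low libraries. It was called with libraries 1_2, 4_2 and 5_2 left out (0.33, adjusted p = 0.0243), where H2-M3 was not. Its adjusted p was 0.0241 without injured CD44low library 5_2 and 0.0406 without injured CD44high library 2, which enters through the shared spread. Tap2 had a log2 fold change of -0.16 (SE 0.0716, adjusted p = 0.161) and Nlrc5 of -0.47 (SE 0.261, adjusted p = 0.252).

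The effect of injury was then compared between the subsets, as the change in CD44high minus the change in CD44low Tregs. By edgeR 0 of 9 members were called, where 0.645% of all genes tested were called in either direction, and DESeq2 called 0. An unadjusted p under 0.05 was reached by 3 members, H2-D1 (difference -0.47 on the log2 scale, SE 0.148, adjusted p = 0.166), H2-M3 (-0.40, SE 0.148, adjusted p = 0.269) and Tapbp (-0.33, SE 0.140, adjusted p = 0.383). H2-D1 was called without injured CD44high library 2 (-0.59, adjusted p = 0.0423) and with libraries 1_2, 4_2 and 5_2 left out (-0.55, adjusted p = 0.0314). The differences between subsets that were seen in uninjured and not in injured mice for H2-D1, H2-M3, Tap1 and Tapbp were thus not shown to depend on injury. The comparisons share groups of samples, so their values are not independent.

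Nlrc5 varied more between libraries of one group than any other member in injured mice. Its coefficient of variation was 49.4% in CD44low and 37.7% in CD44high Tregs of injured mice, where the other 8 members had between 3.93% and 16.5%. In uninjured CD44high Tregs it was below that of Tapbp, which was 13.6%. Nlrc5 has the longest transcript of the members, at 7578 bases in GENCODE vM21. The libraries differed in how log2 CPM, less each gene's mean over the 19 libraries, changed with transcript length over 11350 genes. A slope is thus relative to the average library. In the injured CD44low group the slope was -0.074 log2 CPM per doubling of length in library 1, where Nlrc5 stood at 52.7 CPM, and 0.148 in library 5_2, where it stood at 221. The order was not strict, since library 1_2 had the lowest slope of that group, -0.181, with Nlrc5 at 86.5 CPM. In injured CD44high library 2 the slope was -0.272 and Nlrc5 stood at 27.9 CPM. Slopes in uninjured mice ran from -0.055 to -0.015 in CD44high and from 0.074 to 0.192 in CD44low libraries, so the slope moved with the subset too. With each library's trend on length taken out, a choice made after seeing the data, the log2 fold change of Nlrc5 was -1.38 (adjusted p = 2.66e-05) in uninjured and -1.07 (adjusted p = 0.000396) in injured mice. It was thus smaller and remained called.

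**Figure D4:**
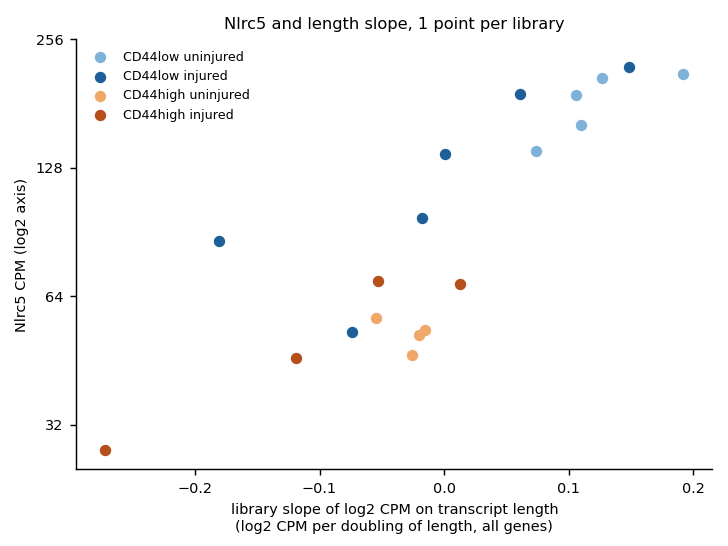
Nlrc5 level in CPM (y axis, log2 scale) against the library's slope on transcript length (x axis), with 1 point for each of the 19 libraries. The slope is of log2 CPM less each gene's mean over the libraries, so it is relative to the average library. The 5 CD44low libraries of uninjured mice have the slopes from 0.074 to 0.192 and 140.5 to 212 CPM, and injured CD44high library 2 has the lowest slope, -0.272, and the lowest level, 27.9 CPM.

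Within groups, the members did not move as 1 block. After subtracting each group's mean, log2 CPM of H2-K1 and B2m had a Pearson r of 0.81 over the 19 libraries, and H2-T23 and B2m one of 0.76. Tap1 and Tap2 had r of 0.49, and Tap1 and H2-D1 of 0.09. Nlrc5 had r of -0.78 with H2-K1 and -0.80 with H2-D1. These are descriptions, since all points share their libraries and the length slopes above. The genes, members apart, whose deviations were most like the mean of the members among 11455 genes over the 19 libraries were Dnajc6 (r = 0.82), Xaf1 (0.80), Gbp6 (0.79), Uba7 (0.75) and Samhd1 (0.75). That mean includes Nlrc5, which ran against H2-K1 and H2-D1, so it is not a pattern that the members share.

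The other steps of the pathway were read from lists written by hand with earlier results known. Of 14 genes of peptide generation, which trim proteins to peptides of class I length, 1 was higher and 2 were lower in CD44high Tregs of uninjured mice. Over all genes tested 24.7% were higher and 21.3% lower there, and the list was not tested against these shares. The immunoproteasome subunit Psmb10 was lower (log2 fold change -0.45, SE 0.122, adjusted p = 0.00418), as was Erap1, the aminopeptidase that trims peptides in the endoplasmic reticulum (-0.34, adjusted p = 0.0257). The constitutive subunit Psmb5 was higher (0.44, adjusted p = 0.0184). In injured mice Psmb10 was lower (-0.51, adjusted p = 0.00144) and Psme2, a subunit of the proteasome activator, higher (0.33, adjusted p = 0.0200). The list's median was 0.05 and 0.06 in these comparisons. After injury Psmb5 was higher in CD44low Tregs (0.47, adjusted p = 0.0380), where 4.24% of all genes tested were higher and 3.36% lower. In CD44high Tregs edgeR called 0 of 14 after injury, with 1 at an unadjusted p under 0.05. Of all genes tested 1.06% were higher and 1.33% lower there.

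Of 10 loading factors and chaperones of the endoplasmic reticulum, 6 were higher and 1 was lower in CD44high Tregs of uninjured mice, and 7 were higher in injured mice. Over all genes tested 24.7% were higher and 21.3% lower in uninjured mice, and 20.1% and 17.2% in injured mice. The list's median log2 fold change was 0.45 and 0.41. Sec61a1, a subunit of the channel into the endoplasmic reticulum, was higher by 0.58 (SE 0.0901, adjusted p = 1.39e-05) and 0.49 (SE 0.0861, adjusted p = 7.60e-05). Pdia3, the disulfide isomerase of the loading complex, was higher by 0.63 (adjusted p = 0.000185) in uninjured mice, and Calr, calreticulin, by 0.42 (adjusted p = 0.000222). In injured mice Hspa5, the general chaperone BiP, was higher by 0.71 (adjusted p = 0.000488) and Pdia6 by 0.68 (adjusted p = 0.000475). The gene called lower in uninjured mice was Uggt1 (-0.64, adjusted p = 0.00492), which reglucosylates misfolded glycoproteins and was named after its value was seen. Many of these genes serve all secreted proteins and not class I alone. After injury Bcap31 (0.41), Hspa5 (0.53) and Calr (0.26) rose in CD44low Tregs, with adjusted p of 0.0207, 0.0241 and 0.0342. There 4.24% of all genes tested were higher and 3.36% lower. In CD44high Tregs edgeR called 0 of 10 after injury, with 4 at an unadjusted p under 0.05, against 1.06% higher and 1.33% lower over all genes.

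**Figure D5:**
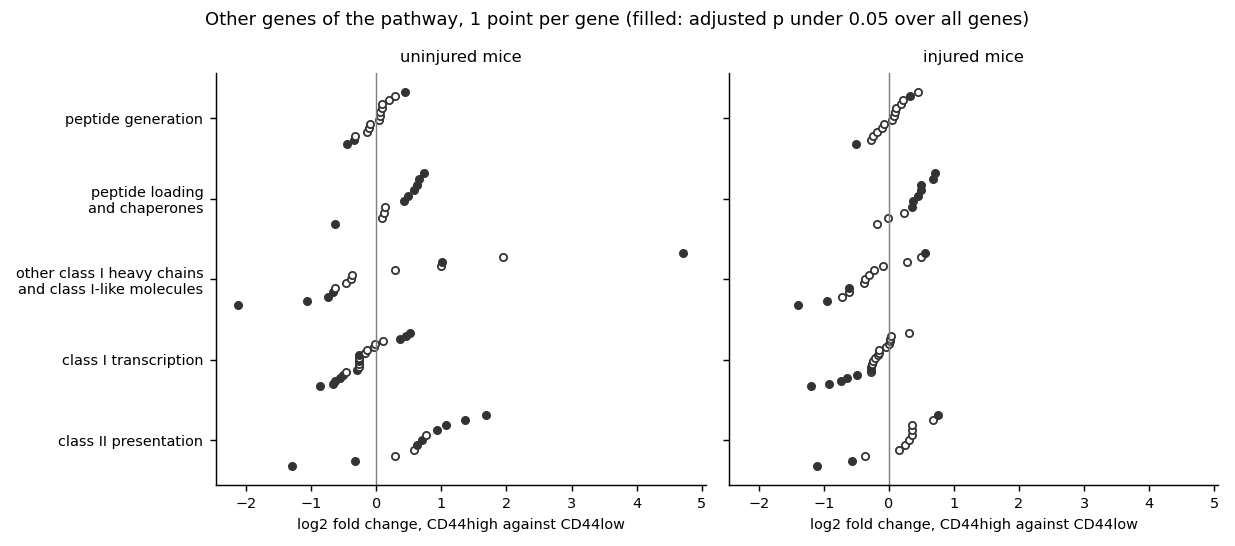
Log2 fold change between CD44high and CD44low Tregs (x axis) of each tested gene in 5 lists (y axis), in uninjured (left) and injured mice (right), with filled points for an adjusted p under 0.05 over all genes. Loading factors and chaperones lie mostly to the right of 0 (6 and 7 of 10 called higher) and class I transcription genes mostly to the left (8 and 7 of 20 called lower, 3 and 0 higher).

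Genes of class I transcription, the partners of NLRC5 and the interferon inputs, were called in both directions in uninjured mice. Of 20 tested, 3 were higher and 8 lower in CD44high Tregs of uninjured mice, where 24.7% of all genes were higher and 21.3% lower. In injured mice 0 were higher and 7 lower, against 20.1% and 17.2% of all genes. The medians were -0.27 and -0.23. The interferon gamma receptor chain Ifngr2 was lower by a log2 fold change of -0.86 (SE 0.128, adjusted p = 7.31e-06) in uninjured and -0.73 (SE 0.122, adjusted p = 4.56e-05) in injured mice. Ifngr1 was lower by -0.56 (adjusted p = 8.74e-05) and -0.92 (adjusted p = 6.82e-08). Socs1, the inhibitor of interferon signalling, was lower as well, by -0.63 (adjusted p = 5.48e-05) and -1.19 (adjusted p = 5.52e-09). The 3 genes higher in uninjured mice were Nfyb (0.51, adjusted p = 0.00701) and Rfxap (0.37, adjusted p = 0.0323), subunits of the factors on the Y and X boxes, and Nfkb1 (0.46, adjusted p = 0.0430), named after their values were seen. Ifngr1 was higher after injury in both subsets, by 0.39 (adjusted p = 0.0487) in CD44high and 0.76 in CD44low Tregs. Socs1 fell in CD44high Tregs (-0.50, adjusted p = 0.0182), and in CD44low Tregs Nfkb1 rose (0.60, adjusted p = 0.0305) while Rfx5, the DNA-binding subunit of RFX, fell (-0.57, adjusted p = 0.0165).

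The other class I heavy chains and class I-like molecules were thinly counted. Of 29 in the list, 28 were in the table, 5 were at 0 in all libraries (H2-Q6, H2-Q9, H2-T9, H2-M9 and H2-M10.1) and 13 were tested. In uninjured mice 2 were higher and 4 lower in CD44high Tregs, with a median of -0.39, where 24.7% of all genes were higher and 21.3% lower. H2-T-ps stood at 45.6 ± 4.43 CPM (SD, n = 4) in CD44high and 22.7 ± 4.71 (SD, n = 5) in CD44low Tregs. Its log2 fold change was 1.01 (adjusted p = 1.62e-05). The suffix of its symbol marks a pseudogene. Shared 50-base words were counted for the members alone. Whether reads of other class I genes were counted as H2-T-ps was therefore not tested. H2-Q10, of which the secreted product is known from liver, stood at 0.595 ± 0.321 and 2.72 ± 0.725 CPM (-2.12, adjusted p = 0.00104). H2-M2 was higher in CD44high Tregs (adjusted p = 0.000440) on few counts, with 0.834 to 16.8 CPM in CD44high and 0 to 0.938 in CD44low libraries. It had 150 counts in uninjured CD44high and 7 in uninjured CD44low libraries, and its SD in the former, 7.20 CPM, exceeded the mean of 6.16. It was thus tested mainly through the group where it was high, and its call is no support for a difference. H2-Q10 was in turn tested mainly through CD44low libraries. The other 3 lower genes were H2-K2 (-1.07), H2-T10 (-0.75) and H2-Q4 (-0.67), with adjusted p of 0.00179, 0.00893 and 0.0141, named after their values were seen. In injured mice, against 20.1% higher and 17.2% lower over all genes, 1 was higher, H2-T-ps (0.55, adjusted p = 0.00532), and 3 were lower, H2-K2 (-0.95, adjusted p = 0.00295), H2-Q10 (-1.40, adjusted p = 0.0106) and H2-T10 (-0.61, adjusted p = 0.0287). After injury H2-M2 was lower in CD44high (adjusted p = 0.0369, with the limit given above) and H2-Q4 in CD44low Tregs (-0.74, adjusted p = 0.0218).

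Genes of MHC class II presentation were read for contrast. Of 11 tested, 6 were higher and 2 lower in CD44high Tregs of uninjured mice, where 24.7% of all genes were higher and 21.3% lower. In injured mice 1 was higher and 2 were lower, against 20.1% and 17.2% of all genes. Cd74, the invariant chain, was higher by a log2 fold change of 1.68 (SE 0.199, adjusted p = 2.57e-07) and 0.75 (SE 0.188, adjusted p = 0.00286), and H2-Oa by 0.63 (adjusted p = 0.00565) in uninjured mice. H2-Ob was lower by -1.29 (adjusted p = 1.43e-08) and -1.11 (adjusted p = 9.94e-08), and H2-DMa by -0.33 (adjusted p = 0.0291) and -0.57 (adjusted p = 0.000439). The summed level of the list was 1087 to 2239.9 CPM in CD44high and 606 to 929.5 in CD44low libraries of uninjured mice. In uninjured CD44high libraries 2, 3, 4 and 5 it was 2239.9, 1796, 1087 and 1528 CPM, beside B cell marker sums of 194, 189, 97.2 and 104 CPM and dendritic cell and macrophage marker sums of 167, 91.7, 96.2 and 140.2 CPM. These cells all express class II genes, and their part in the sum was not tested. In bulk samples, fewer cells of a type and less RNA per cell cannot be told apart. For the difference between subsets in the effect of injury, edgeR called 0 of the 68 genes of the 5 lists, with 7 at an unadjusted p under 0.05. Of all genes tested, 0.645% were called there, so few calls would be found in any list of this size.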

How the data were processed

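CD44high and CD44low CD4+FoxP3-GFP+ Tregs of uninjured and injured mice were profiled by SMART-Seq v4 cDNA synthesis and Swift 2S libraries. The authors ran STAR within VIPER and deposited raw, unnormalized counts per gene, with 1 column for each sample. The submitters' processing notes list bcl2fastq 2.18, STAR 2.5 and the builds mm9 and mm10 without saying which was used, so coordinates here are those of GRCm38 annotation (GENCODE vM21 and RefSeq) matched by symbol, not of the counts.

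Counts were analysed in R 4.3.3 with edgeR 4.0.16 (limma 3.58.1), filtered at a minimum count of 10, scaled by TMM and fitted with 1 mean for each of the 4 groups. The quasi-likelihood test was run on all 11464 genes kept, and log2 CPM used a prior count of 2. The comparisons were between subsets in uninjured and in injured mice, between mice with and without injury in each subset, and the interaction. DESeq2 1.42.0 was an alternative, beside RLE factors, no filter on low counts, the compared groups alone, replicate blocks, other uses of libraries 1_2, 4_2 and 5_2, an adjusted p under 0.01 and each library left out. A correction for transcript length per library and thinning to equal depth were added after seeing the data. The edgeR tests between subsets and between mice with and without injury were first checked on simulated counts. The interaction, DESeq2 and the other settings were not checked in this way. Figures were drawn with matplotlib 3.10.9. Lengths per gene are those of the longest protein-coding transcript, in place of the planned median transcript, which for Tap2 was 378 bases.

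The members and the gene lists were chosen with earlier results of these data known. Genes were named by rule: the 10 members, up to 3 genes of smallest p past the threshold per list and comparison, list genes with no count, the 5 genes most like the members, and cell type markers. Other genes named in counts of 5 or fewer were named after their values were seen. Replicates of a group differed by a chi-square of 4.96 to 41.3 per gene (combined count of at least 20), so none was taken as a library deposited more than once. Depth per library was 5582234 to 9433610 counts. Reads carry no molecular identifiers, so count limits cover counting error only. Other assays of the study were not used here.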

Additional observations from a re-analysis of the deposited data

Results flagged for a closer look

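In groups of 4 to 6 libraries, a library was singled out where its gap to the nearest other passed Dixon's 95% value, and chance marks about 1 in 20 of the 36 member groups tested. H2-T23 stood at 351 CPM in injured CD44low library 5, below the other 5 libraries of its group, which ran from 519 to 579.9. Tap1 stood at 814 CPM in uninjured CD44high library 3, above the other 3 at 690.5 to 702. Tapbp stood at 1621 CPM in injured CD44low library 1, above the other 5 at 1298 to 1414.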

How the results depend on the processing

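Of 504 log2 fold changes of members recomputed under other settings, 468 kept their direction and their side of the threshold, 5 lost and 5 gained a call and 26 changed sign, and of 855 recomputed without 1 library 811 kept both, 5 lost and 3 gained a call and 36 changed sign. No member's value that was called changed sign. The 4 higher and 1 lower calls between subsets of uninjured mice came out as 4 or 5 and 1 under every setting, with H2-T23 as the fifth with the compared groups alone (0.18, adjusted p = 0.0364), and Nlrc5 stayed called between -1.95 and -1.38 in uninjured and between -1.69 and -1.07 in injured mice.

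With the trend on transcript length taken out, lower calls between subsets of injured mice came to 2 (H2-K1 joined Nlrc5 at -0.21, adjusted p = 0.0254), lower calls after injury in CD44high Tregs to 1 (B2m, -0.33, adjusted p = 0.0448) and higher calls after injury in CD44low Tregs to 0. The last count was also 0 with the compared groups alone, with the replicate block on the leading number and at an adjusted p under 0.01, and without 1 library it ran from 0 to 2. H2-M3 had adjusted p of 0.0799 and 0.0890 in the first 2 of these. Lower calls for the difference between subsets in the effect of injury came to 1 (H2-D1) with libraries 1_2, 4_2 and 5_2 left out, and without 1 library to between 0 and 1. The cause was not tested.

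Signs changed only where no call was made. Between subsets of injured mice H2-M3 had -0.01 by DESeq2 and with RLE factors, -0.02 with the compared groups alone and without the filter, -0.08 with only the 3 libraries of a second number kept and -0.10 with the length trend out. H2-D1 had 0.05 with the replicate block on the leading number, 0.11 with the block within injury groups and 0.03 with only those 3 libraries. H2-T23 had -0.01 with only those 3, and Tapbp -0.01 with them left out. B2m had 0.01 with the block within injury groups and 0.04 with the 3 left out. Tap2 had -0.00 with that block and with libraries 1 with 1_2 and 5 with 5_2 summed, -0.01 with the 3 left out and -0.02 with the length trend out. With the length trend out, H2-K1 had -0.13 and Tap2 -0.01 between subsets of uninjured mice, and H2-K1 and B2m each -0.09 after injury in CD44low Tregs. There B2m had -0.02 with the 3 left out, and H2-T23 0.04 and Tapbp -0.03 with only those 3. In the interaction Tap2 had 0.00 with only those 3. Nlrc5 after injury in CD44high Tregs had -0.03 with the block on the leading number.

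Without 1 library the values between subsets of injured mice ran from -0.16 to 0.04 for H2-D1, from -0.01 to 0.13 for H2-T23, from -0.08 to 0.06 for H2-M3, from -0.12 to 0.00 for B2m, from -0.03 to 0.06 for Tap2 and from -0.00 to 0.13 for Tapbp. After injury Nlrc5 ran from -0.14 to 0.24 in CD44high and H2-T23 from -0.08 to 0.05 in CD44low Tregs, and Tap2 from -0.07 to 0.02 in the interaction. Same-numbered CD44high and CD44low libraries of the same injury state had correlations of their deviations from -0.05 to 0.17. Same-numbered libraries of uninjured and injured mice had correlations from -0.12 to 0.04. The numbers were not taken as pairs, and whether the subsets were sorted from the same mice is not settled by these values. The replicate block moved no other call. Summing H2-Q6 to H2-Q9 gave no value on 1 count, and the interaction could not be fitted on compared groups alone. At 3 counts per library, depth limits a level of 0 to at most 0.318 to 0.537 CPM, and whether uncounted shared reads add to the 0 of H2-Q7 was not tested.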
